A study of Mus musculus with 384 samples.

Results

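The Myc family and its partners were followed in single mouse pluripotent stem cells: the paralogs Myc, Mycn and Mycl, their dimer partner Max, and the competing Max partners Mxd3, Mxd4, Mxi1, Mnt and Mga. The 9 genes were located by Ensembl identifier, and all 9 were among the 31617 genes of the count table. Messenger RNA of sorted single cells was sequenced by Smart-seq2, a full-length method that does not mark strand and carries no molecular identifiers, in 96 cells of each of 4 lines. Formative stem (FS) cells are lines derived from pre-gastrulation epiblast, and lines 5ar1 and 5ar2 were kept in AloXR (the labels write A3XR), which holds 3 ng/ml activin, 2 µM of the Wnt pathway inhibitor XAV939 and BMS493 at 1 µM, an inverse agonist of retinoic acid receptors. EpiSCs are epiblast-derived stem cells of the later, primed state. Line AFX6 was kept in AFX (20 ng/ml activin, Fgf2 and XAV939) and line AF32 in AF (20 ng/ml activin and Fgf2). Each EpiSC medium had 1 line, so line and medium cannot be told apart. No medium was shared by FS cells and EpiSCs, so state and medium cannot be told apart either.

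Myc proteins are basic helix-loop-helix leucine zipper factors that bind DNA as dimers with Max, at E-boxes with the letters CACGTG, and are best known for raising genes of ribosome production, nucleotide and amino acid metabolism and growth. The Mxd proteins, Mxi1 (Mxd2) and Mnt compete for Max and recruit Sin3 and histone deacetylases, and Mga takes Max into a Polycomb complex, PRC1.6, that silences germ cell genes. In pluripotent cells Myc and Mycn are known to overlap in function, and low Myc activity is known to slow growth and protein synthesis.

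Cells with at least 3000000 counts were kept, 90 of 5ar1, 90 of 5ar2, 66 of AFX6 and 80 of AF32, with 3022666 to 6686007 counts each. The median number of detected genes was 11371 and 11568 in the FS lines and 10328 and 10331 in the EpiSC lines, so that the FS cells had more detected genes. Of 8 pluripotent epiblast markers, 7 or 8 reached 5 CPM (counts per 1000000 counts) in each line, among them Pou5f1 at 490 to 644 CPM, while none of 6 measured naive markers did. The summed level of 5 neural markers ranged from 19.2 CPM in AFX6 to 343 CPM in 5ar1, of which Tubb3 made up most, and that of 5 fibroblast markers from 9.93 CPM in 5ar1 to 49.5 CPM in 5ar2. Of the trophoblast markers 4 were measured, and their sum, mostly Eomes, was 81.6 and 68.2 CPM in 5ar1 and 5ar2 and 12.2 and 8.22 CPM in AFX6 and AF32, so that it was higher in both FS lines. The sum of 7 primitive streak and endoderm markers was 62.3, 52.4, 7.88 and 54.6 CPM in the same order. In the FS lines it was mostly Eomes again (61.3 and 48.2 CPM). In AF32 Eomes had 5.84 CPM and the sum was mostly T (39.1 CPM), which reached 1 CPM in 3.75% of the cells. The sum of 5 extraembryonic endoderm markers was 1.57 to 8.93 CPM. The part of these differences in the results below was not tested.

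The family's own binding letters were looked for in the genes' start regions, and the matches are shown because this is the motif that Myc and its competitors read. Windows ran from 250 bases before to 50 after each RefSeq start (GRCm38.p6). CACGTG reads the same on both strands. It was present in 3 of the 8 members that have a window, Max, Mxd4 and Mnt, against 8.09% of 27025 genes with a window and 11.1% of the tested genes with one. Of the other motifs searched, GCGCGAAA and TTTGGCGC on either strand were in 0.323% and 0.514% of all windows, and Mycn was the 1 member with either. The motifs were chosen after the windows had been seen. Each sequence below is written 5′ to 3′ along the gene's strand, with the E-box in capitals.
Max, chr12:76962224-76962273, minus strand: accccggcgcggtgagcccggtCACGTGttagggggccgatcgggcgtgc
Mxd4, chr5:34187902-34187951, minus strand: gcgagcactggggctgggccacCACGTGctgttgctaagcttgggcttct
Mnt, chr11:74830779-74830828, plus strand: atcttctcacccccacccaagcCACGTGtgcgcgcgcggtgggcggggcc

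The first base of the E-box lay 3 bases before the start in Max, 123 before it in Mnt and 219 before it in Mxd4. A match of letters is a description of the sequence and not a site shown to be bound in these cells.

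Mycn (chromosome 12, 12936093 to 12941914, minus strand, GRCm38) was the most abundant paralog per length in every line and the member with the largest difference between the states. Its summed level, the counts of all kept cells of a line over their total, was 218.9 CPM in both 5ar1 and 5ar2, 72.6 CPM in AFX6 and 90.7 CPM in AF32. Both FS lines lay above both EpiSC lines, and the FS mean was 2.68 times the EpiSC mean (219 ± 0.038 against 81.6 ± 12.8 CPM, SD, n = 2 lines each). The log2 fold change was 1.42 ± 0.18 (SE, edgeR quasi-likelihood test, p = 0.00118, Benjamini-Hochberg adjusted p = 0.19 over all genes). The FS lines were nearly equal, with a fold of 1.00 (95% counting interval 0.991 to 1.01) between them.

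In single cells Mycn was found in nearly all FS cells, at levels that varied, though less than in EpiSCs. At least 1 CPM, about 3 counts at the lowest depth, was found in 89 of 90 cells of each FS line, in 51 of 66 AFX6 cells (77.3%, exact 95% interval 65.3% to 86.7%) and in 61 of 80 AF32 cells (76.3%, 65.4% to 85.1%). The cell median was 214 and 213 CPM in the FS lines and 50.9 and 62.4 CPM in AFX6 and AF32. Among cells with at least 1 CPM the medians were 214, 213, 59.0 and 98.9 CPM in the same order, so that the states differed in the level of the cells with Mycn as well as in their share. The coefficient of variation over cells was 0.481 and 0.493 in the FS lines and 1.54 and 1.06 in the EpiSC lines.

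Myc (chromosome 15, 61985391 to 61990374, plus strand), the paralog that gives the family its name, had 65.6 and 75.3 CPM in 5ar1 and 5ar2 and 33.2 and 37.1 CPM in AFX6 and AF32. The FS lines again lay above the EpiSC lines, with a mean 2.01 times as high (70.4 ± 6.80 against 35.1 ± 2.74 CPM, SD, n = 2 lines each). The log2 fold change was 1.00 ± 0.20 (SE, edgeR p = 0.00649, adjusted p = 0.19). Unlike Mycn, Myc differed mainly in the share of cells. At least 1 CPM was found in 74 of 90 cells of 5ar1 (82.2%, exact 95% interval 72.7% to 89.5%), 81 of 90 of 5ar2 (90.0%, 81.9% to 95.3%), 28 of 66 of AFX6 (42.4%, 30.3% to 55.2%) and 37 of 80 of AF32 (46.3%, 35.0% to 57.8%). In the cells that reached 1 CPM, the median was 58.0, 64.2, 45.8 and 58.0 CPM, so that 5ar1 and AF32 were alike. The drop in share was not particular to Myc, since the shares of Mycl and Max were also lower in both EpiSC lines. EpiSCs had fewer detected genes as well, and the shares of other genes of similar level were not compared.

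The lower share of Myc cells in EpiSCs was also seen at equal depth. With every cell thinned to 3000000 counts the cells with at least 1 CPM numbered 75, 81, 28 and 38. Among cells with at least 10000 detected genes, a limit chosen after the values were seen, the shares were 83.1% of 89 and 90.0% of 90 FS cells against 53.3% of 45 AFX6 and 45.2% of 62 AF32 cells. The 5 AFX6 cells with the most Myc counts held 51.0% of that line's Myc counts, against 19.9% in each FS line. As a gauge of stray counts, the Y-linked gene Eif2s3y reached 1 CPM in 75 of 80 AF32 cells, while in AFX6 it had a count in 53 of 66 cells but reached 1 CPM in 1, at 1.36 CPM. The limit of 1 CPM thus lay above nearly all counts of this kind.

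Mycl (chromosome 4, 122995652 to 123002485, plus strand), the third paralog, did not separate the states. It had 48.8 and 40.7 CPM in 5ar1 and 5ar2 and 33.4 and 44.4 CPM in AFX6 and AF32, with AF32 between the FS lines (log2 fold change 0.20 ± 0.24 SE, edgeR adjusted p = 0.80). The share of cells with at least 1 CPM was nonetheless 78.9% and 70.0% in the FS lines against 45.5% and 52.5% in the EpiSC lines. The median of those cells was 47.2 and 49.2 CPM in the FS lines and 66.8 and 76.7 CPM in the EpiSC lines, so that fewer EpiSCs reached 1 CPM and the median of those that did was higher.

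**Figure D1:**
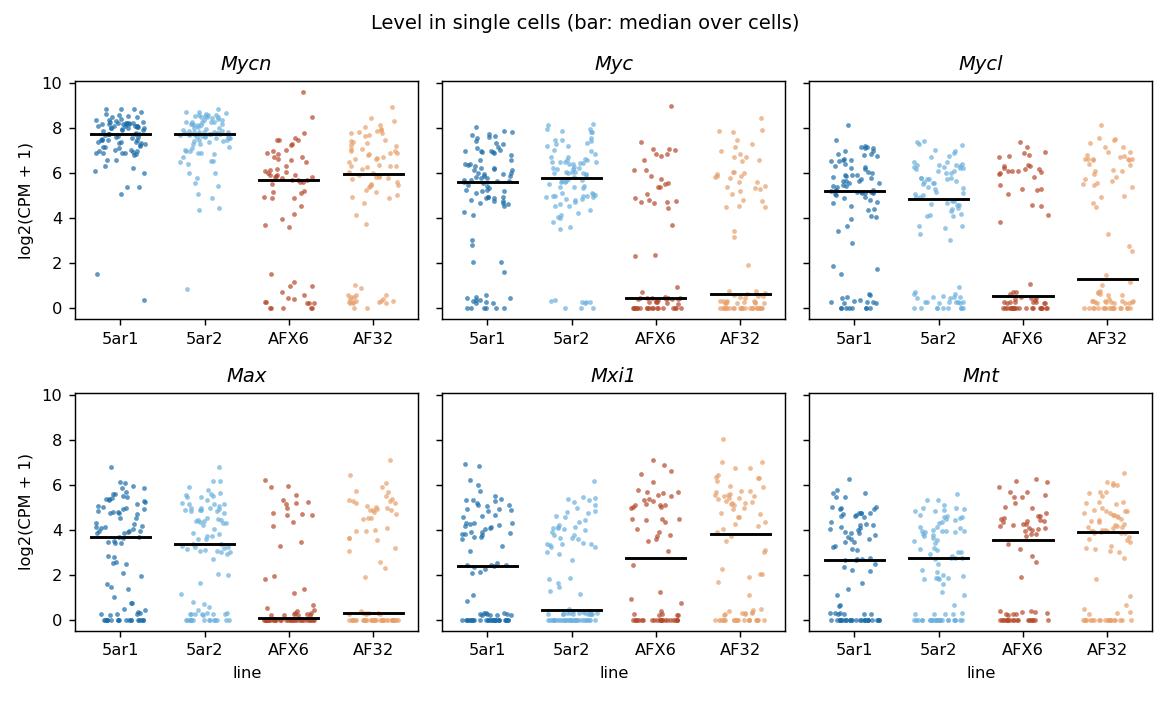
Level of 6 members in each kept cell (points, log2(CPM + 1), horizontal jitter has no meaning) of the FS lines 5ar1 and 5ar2 (90 cells each) and the EpiSC lines AFX6 (66) and AF32 (80), with the median over cells as a bar. Mycn lies well above 0 in nearly all FS cells. The Myc median drops from 48.4 and 54.3 CPM in FS cells to 0.364 and 0.577 CPM in EpiSCs, where most cells lie near 0.

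Per kilobase of exon, the 3 paralogs together amounted to 103 and 104 CPM per kb in 5ar1 and 5ar2 and to 42.5 and 52.2 in AFX6 and AF32. The order was Mycn, Myc, Mycl in each line. Mycn contributed 64.7% and 63.7% of the sum in the FS lines and 51.8% and 52.8% in the EpiSC lines, Myc 23.5%, 26.6%, 28.7% and 26.1%, and Mycl 11.8%, 9.67%, 19.5% and 21.1%. Mycn thus made up more, and Mycl less, of the FS total, while the Myc share overlapped between the states. With the length of the longest transcript in place of all exons, the Mycn shares were 66.1%, 65.1%, 53.4% and 54.3%. All 3 paralogs reached 1 CPM in 58 and 55 of 90 FS cells, and in 13 of 66 AFX6 and 18 of 80 AF32 cells. No paralog reached 1 CPM in 1 cell of 5ar1, 0 of 5ar2, 6 of AFX6 and 11 of AF32.

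Max (chromosome 12, 76937269 to 76962201, minus strand), the shared partner of these factors, had 18.0 and 16.9 CPM in 5ar1 and 5ar2, 8.61 in AFX6 and 15.3 in AF32. The FS lines were higher, but the gap to AF32 was narrow, and the log2 fold change of 0.54 ± 0.38 (SE) did not pass (edgeR adjusted p = 0.60). Max was found at 1 CPM in 62 of 90 cells of each FS line and in 21 of 66 AFX6 and 37 of 80 AF32 cells, while the median of those cells was 20.5 CPM in both FS lines and 25.2 and 28.5 CPM in the EpiSC lines. Per length Max was below each Myc paralog in all lines.

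Among the competitors of Myc for Max, Mxi1 (chromosome 19, 53310518 to 53375810, plus strand) differed most. It had 13.7 and 8.82 CPM in 5ar1 and 5ar2 and 19.9 and 28.5 CPM in AFX6 and AF32, and the EpiSC mean was 2.15 times the FS mean (log2 fold change -1.11 ± 0.37 SE, edgeR p = 0.0372, adjusted p = 0.27). The EpiSC lines lay above the FS lines. The share of cells with at least 1 CPM overlapped between the states (56.7% and 48.9% of FS cells, 53.0% and 62.5% of EpiSCs), whereas the median of those cells did not, at 17.8 and 14.5 CPM in the FS lines and 33.7 and 36.2 CPM in the EpiSC lines. The pattern over cells was therefore the opposite of that of Myc, whose share of cells separated the states while the level in those cells was alike in 5ar1 and AF32.

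Mnt (chromosome 11, 74830920 to 74845725, plus strand), a broadly expressed Max partner, had 11.4 and 9.58 CPM in the FS lines and 15.9 and 17.2 CPM in AFX6 and AF32, with an EpiSC mean 1.58 times as high (log2 fold change -0.67 ± 0.29 SE, edgeR adjusted p = 0.37). Chromosome levels are given on a pooled scale, in which each gene was first divided by its mean over all kept cells of all lines. A line that is high on a chromosome thus lowers the values of the other lines. The values are therefore not folds between lines. In AF32 the genes of chromosome 11, measured without Mnt, had on this scale a median 1.28 times that of the autosomes. Of its 80 cells 66 were over 1.2 times, while the other lines had medians of 0.900 to 0.913. The chromosome median in AFX6 was 0.907. On chromosome 19, which carries Mxi1, the median was 1.28 in 5ar2, the line with the lowest Mxi1 level, and 18 of 80 AF32 cells were over 1.2 times. On chromosome 15, which carries Myc, it was 1.15 in 5ar2, the line with the highest Myc level, with 11 of 90 cells over 1.2 times. In AFX6, the line with the lowest Myc level, the median was 0.993 and 8 of 66 cells were over 1.2 times. On chromosome 2, which carries Mga, 29 of 80 AF32 cells were over 1.2 times, and AF32 had the highest Mga level. Between cells of a line, Spearman's rho of Myc with its own chromosome was 0.07, 0.08, -0.002 and 0.04 in 5ar1, 5ar2, AFX6 and AF32. In the same order it was -0.03, 0.14, 0.01 and -0.08 for Mnt and 0.08, -0.003, -0.03 and 0.08 for Mxi1. For Mga it was -0.02, -0.07, -0.06 and -0.07. The part of the chromosome levels in those of the members was not tested.

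Mga (chromosome 2, 119897228 to 119969581, plus strand) had 56.9 and 53.3 CPM in the FS lines and 62.0 and 66.4 CPM in AFX6 and AF32. The EpiSC lines were higher by 1.16 times, and this did not pass (log2 fold change -0.23 ± 0.18 SE, edgeR adjusted p = 0.66). With Mycn it was the member found at 1 CPM in most cells, from 77.3% of AFX6 to 96.7% of 5ar1 cells, and in AF32 it was found in more cells than Mycn (71 against 61 of 80). Per length it came next after the paralogs in AFX6 and AF32, at 4.04 and 4.33 CPM per kb, and after Max in the FS lines.

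Mxd3 and Mxd4 separated the EpiSC lines from each other rather than the states. Mxd3 (chromosome 13, 55325168 to 55329823, minus strand), known for expression in S phase, had 5.02, 3.73, 3.56 and 9.96 CPM in 5ar1, 5ar2, AFX6 and AF32, and Mxd4 (chromosome 5, 34173883 to 34187720, minus strand) had 13.2, 11.1, 6.18 and 14.9 CPM. In both genes the EpiSC lines enclosed the FS lines (log2 fold change -0.62 ± 0.64 and 0.21 ± 0.52 SE, edgeR adjusted p = 0.75 and 0.92). The direction turned with 1 line, since the log2 fold change of Mxd3 was 0.26 without AF32 and that of Mxd4 was -0.28 without AFX6. Mxd3 was 2.79 times as high in AF32 as in AFX6 (95% counting interval 2.62 to 2.99) and Mxd4 2.41 times (2.29 to 2.54), but the 5 cells with the most Mxd3 counts held 91.4% of them in AFX6 and 68.9% in AF32. They were the 2 of 9 members past 2-fold between the EpiSC lines, as were 21.7% of the 11260 genes that reached 5 CPM in 1 of the 2 lines. The other 7 folds of AF32 over AFX6 ran from 1.07 (Mga) to 1.78 (Max). Between the FS lines 0 of 9 members passed 2-fold against 6% of 10744 genes, and the largest fold was that of Mxi1 at 1.56 (1.49 to 1.62).

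**Figure D2:**
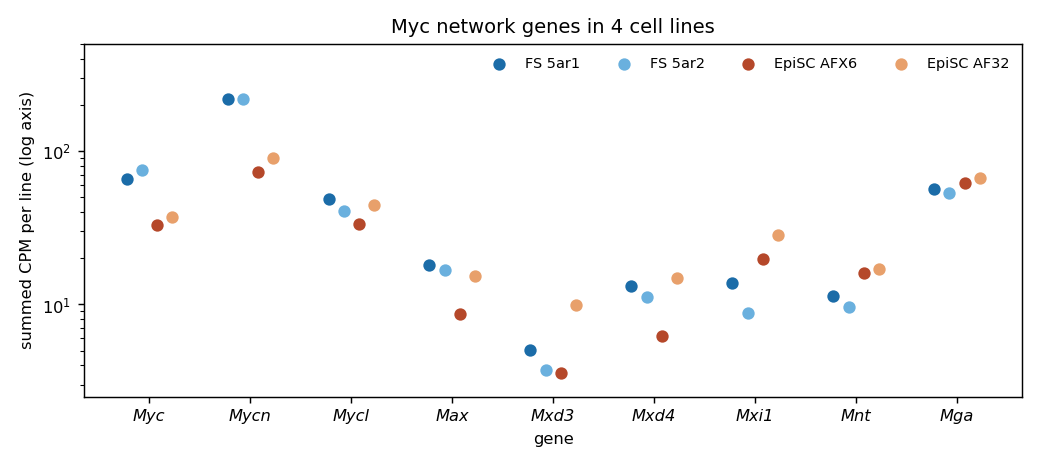
Summed level of the 9 members in each line (points, CPM on a log axis). Myc, Mycn and Max lie higher in both FS lines (blue) than in both EpiSC lines (orange), Mxi1, Mnt and Mga lie lower, and Mycl, Mxd3 and Mxd4 overlap.

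Across the members, both FS lines lay above both EpiSC lines in 3 (Myc, Mycn and Max), against 26.8% of 22606 tested genes, and below them in 3 (Mxi1, Mnt and Mga), against 21.5%. The separation of the lines in 6 of 9 genes is therefore not far from what any set of genes gives here. Sizes like those of Myc, Mycn and Mxi1 were common as well. Of the tested genes, 1114 had a log2 fold change of 0.75 to 1, the bin of Myc. The bin of Mycn (1.25 to 1.5) held 545 and that of Mxi1 (-1.25 to -1) held 846. With 2 lines against 2, an exact two-sided permutation test cannot go below p = 0.333. In simulated data that gave every gene the common dispersion estimated from these lines (0.653), edgeR recovered 0 of 200 changed genes. The median error there was 0.88 and 0.84 log2 units, against an SE of 0.18 for Mycn and 0.20 for Myc. The simulation was thus noisier than these genes and cannot tell what the test could find for them. With 2 lines against 2, a missed threshold is still not read as a small difference. In the real data edgeR called 0 of 9 members and 0% of all tested genes at an adjusted p under 0.05. At an unadjusted p under 0.05 it had 3 members (Myc, Mycn and Mxi1) and 16.1% of all genes. DESeq2 on the same sums called 2 members, Myc (adjusted p = 0.00101) and Mycn (adjusted p = 1.2e-06), and 13.1% of 22277 genes, with an adjusted p of 0.052 for Mxi1. Lines 5ar1 and 5ar2 stand for FS cells in 1 medium, so that the p-values measure the spread between these 4 cultures.

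Set against their competitors per length, the paralogs were in larger excess in FS cells. The summed level of Mxd3, Mxd4, Mxi1, Mnt and Mga was 11.9, 9.73, 12.6 and 18.2 CPM per kb in 5ar1, 5ar2, AFX6 and AF32, and the paralog sum was 8.67, 10.7, 3.36 and 2.87 times it. This ratio of messages was chosen after the levels had been seen, is given with no test, and says nothing of protein.

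Whether Myc and Mycn track or replace each other between cells was asked within each line. Spearman's rho was 0.25 and 0.02 in 5ar1 and 5ar2 and -0.07 and 0.15 in AFX6 and AF32, over 90, 90, 66 and 80 cells, which share a line, a preparation and the fixed total of CPM. The mean over lines was 0.09, and the signs differed between lines. Of about 10000 genes with at least 5 CPM in a line, 1.88% had a higher rho with Myc than Mycn had in 5ar1, and 47.8%, 80.9% and 13.0% in 5ar2, AFX6 and AF32. In 5ar2 and AFX6 the relation of the pair was thus within the range of most genes.

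The cells sorted by which paralog they held give the same picture. In FS cells both genes reached 1 CPM in 74 of 90 and 80 of 90 cells, Mycn alone in 15 and 9, Myc alone in 0 and 1, and neither in 1 and 0. In EpiSCs both did in 24 of 66 AFX6 and 32 of 80 AF32 cells, Mycn alone in 27 and 29, Myc alone in 4 and 5, and neither in 11 and 14. Mycn in cells with Myc against cells without it had a median of 217 against 126 CPM in 5ar1 and 213 against 211 CPM in 5ar2, and of 49.5 against 50.9 CPM in AFX6 and 72.3 against 54.4 CPM in AF32. The gap was widest in 5ar1, where the group without Myc held 16 cells. Per length Myc exceeded Mycn in 10 and 16 FS cells and in 23 and 23 EpiSCs.

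**Figure D3:**
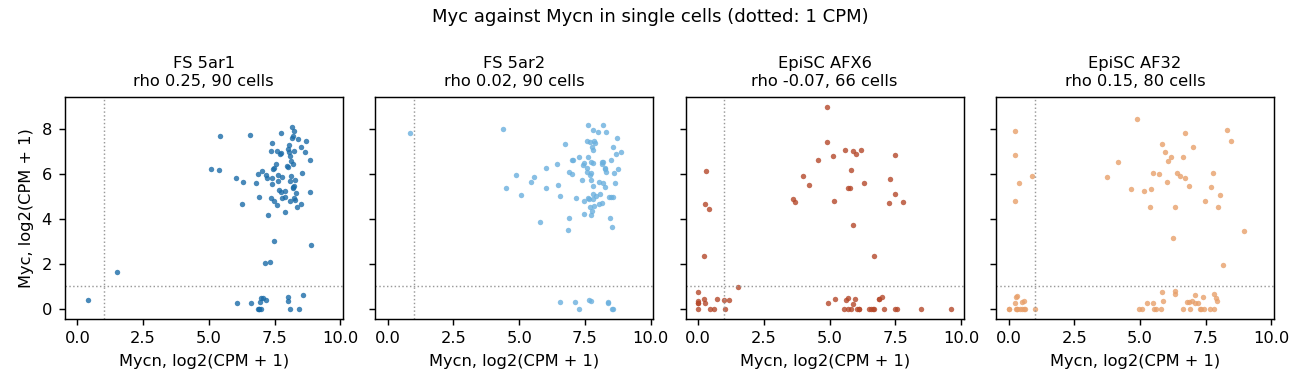
Myc against Mycn in each kept cell, both as log2(CPM + 1), with 1 panel per line and dotted lines at 1 CPM. FS cells lie mostly in the upper right with a band of cells at 0 for Myc only, while EpiSCs fill all 4 corners, and Spearman's rho in the titles runs from -0.07 to 0.25.

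Over all 36 pairs of members and 4 lines, rho ran from -0.26 to 0.28. The sign was the same in all lines for 2 pairs, Myc with Mxi1 (0.05 to 0.11) and Mycn with Mycl, and 0 of 144 values passed 0.3 in size. Myc also had a positive rho with the number of detected genes in each line (0.14 to 0.31), and Mycn in 3 of 4 (0.27, 0.29, -0.03 and 0.30). Of the members, Mxd4 had a negative rho with the summed level of 18 G2/M genes in every line (-0.24, -0.27, -0.13 and -0.29), and Mycn a positive one with 16 S phase genes (0.24, 0.13, 0.14 and 0.10). Mxd3 went with the G2/M sum in 3 lines (0.22, 0.25 and 0.35 in 5ar1, AFX6 and AF32) and not in 5ar2 (-0.02). At this size these values describe the lines and are not findings.

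The genes whose level between cells was most like that of Myc and Mycn were sought among 5758 genes with at least 20 CPM in every line, by the mean of the 4 within-line values of rho. For Myc these were Etv5, an ETS family transcription factor, at 0.32 (0.37, 0.31, 0.20 and 0.39 in 5ar1, 5ar2, AFX6 and AF32), and Dusp6, a phosphatase of ERK, at 0.28 (0.29, 0.34, 0.22 and 0.25). The chromatin-associated factor Utf1 (0.24), the tubulin Tuba1c (0.24) and the ribosome assembly factor Wdr74 (0.23) followed, and Scand1 (-0.25), Rps3a1 (-0.22) and H2afv (-0.21) were the lowest. Among the highest for Mycn were the maintenance DNA methyltransferase Dnmt1 (0.24), the one-carbon enzyme Shmt1 (0.23), the transcription factor Sall4 (0.23) and the mitochondrial import pore Tomm40 (0.22), with Plin2 (-0.21), Hcfc1r1 (-0.21) and Myl6 (-0.20) the lowest. None of the genes named for Myc was among those named for Mycn. The median gene had 0.03 with either, and Etv5 was the 1 gene past 0.3 with Myc.

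Genes known to be raised by Myc were mostly higher in the FS lines. Of 30 ribosome biogenesis genes, 29 were higher in both FS lines than in both EpiSC lines, against 26.8% of all tested genes, and 27 had an unadjusted p under 0.05, against 16.1%. edgeR called 0 of them in either direction and DESeq2 called 21, against 13.1% of all genes. Their median log2 fold change was 0.97, against -0.01 over all tested genes. The largest were those of the pre-rRNA processing factor Rrp12 (82.1, 130, 27.6 and 21.9 CPM in 5ar1, 5ar2, AFX6 and AF32, log2 fold change 2.09 ± 0.33 SE) and of the RNA polymerase I subunit Polr1b (84.4, 75.5, 17.1 and 34.8 CPM, 1.62 ± 0.39), and the smallest those of Npm1 (0.23) and of Pes1 (-0.08), which was lower in the FS lines. The cell median of the summed level of the 30 genes was 16384 and 17004 CPM in the FS lines and 10220 and 9552 CPM in the EpiSC lines. Between cells of a line its rho with Mycn was 0.13, 0.25, 0.16 and 0.15 and with Myc 0.18, 0.07, 0.01 and 0.07. The part of Myc and Mycn in the level of these genes was not tested.

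An E-box was present in the start window of 7 of the 24 list genes that have a window (29.2%), against 11.1% of tested genes. The list was made of known Myc targets, so the higher share may follow from that choice. Pes1, which was lower in the FS lines, was among the genes with a match. The matches before the start are shown for the nucleolar methyltransferase Nop2 and for Imp4, a part of the small-subunit processome, again with the E-box in capitals.
Nop2, chr6:125131801-125131850, plus strand: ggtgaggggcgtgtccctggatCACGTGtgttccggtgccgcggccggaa
Imp4, chr1:34439686-34439735, plus strand: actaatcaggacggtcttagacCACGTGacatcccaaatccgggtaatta

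Of 23 Myc target genes of metabolism and growth, 16 were higher in both FS lines and 2 lower, against 26.8% and 21.5% of all tested genes, with a median log2 fold change of 0.80. Of the 23, 11 had an unadjusted p under 0.05 (16.1% of all genes), edgeR called 0 and DESeq2 8 (13.1% of all genes). The amino acid transporter Slc7a5 had 443 and 239 CPM in the FS lines and 47.9 and 164 CPM in AFX6 and AF32 (1.69 ± 0.68 SE), and the spermidine synthase Srm 703, 547, 243 and 153 CPM (1.64 ± 0.32). The list was not uniform: Tfrc, the transferrin receptor, was lower in the FS lines (73.0, 72.9, 117 and 157 CPM, -0.91 ± 0.21), and Tert had -0.73 ± 0.43. E-boxes were in 9 of its 20 genes with a window. Of 7 genes that Myc is known to repress, only some of them with Miz1, 1 was higher and 2 lower in both FS lines. Ndrg1, a stress and differentiation gene, had 21.5 and 24.0 CPM in the FS lines and 197 and 121 CPM in AFX6 and AF32 (-2.82 ± 0.33 SE), and Txnip, an inhibitor of glucose uptake, 290, 208, 689 and 519 CPM (-1.29 ± 0.27). Gadd45a (0.90 ± 0.48) and Cdkn2b (0.32 ± 1.72) were at the other end, and the median was 0.07. None of these passed edgeR.

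The cell cycle lists differed in opposite directions. Of 16 S phase genes, 12 were higher and 1 lower in both FS lines (median 0.48), against 26.8% and 21.5% of all tested genes, with Tyms at 1.02 ± 0.23 and Mcm2 at 0.98 ± 0.16 (SE) at the top and Gins2 (-0.16) and Cdt1 (-0.11) at the bottom. Of 18 G2/M genes, 0 were higher and 10 lower (median -0.36), from Top2a (-0.98 ± 0.17) and Aurkb (-0.93 ± 0.18) to Kif23 (-0.05) and Ccna2 (-0.03). Neither list had a gene called by edgeR. DESeq2 called 3 of the 16 and 4 of the 18, against 13.1% of all genes. Without AFX6, the median of the G2/M list was -0.07 and 6 of 18 log2 fold changes were positive. The ribosome biogenesis count stayed at 29 positive log2 fold changes of 30 without any 1 line and in cells with at least 10000 detected genes. The cell median of the G2/M sum overlapped between the states (3605 and 4530 CPM in the FS lines, 5928 and 3754 CPM in AFX6 and AF32), and that of the S phase sum did not (6096, 5529, 3260 and 4453 CPM). The part of the cell cycle in the levels of the members was not tested.

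**Figure D4:**
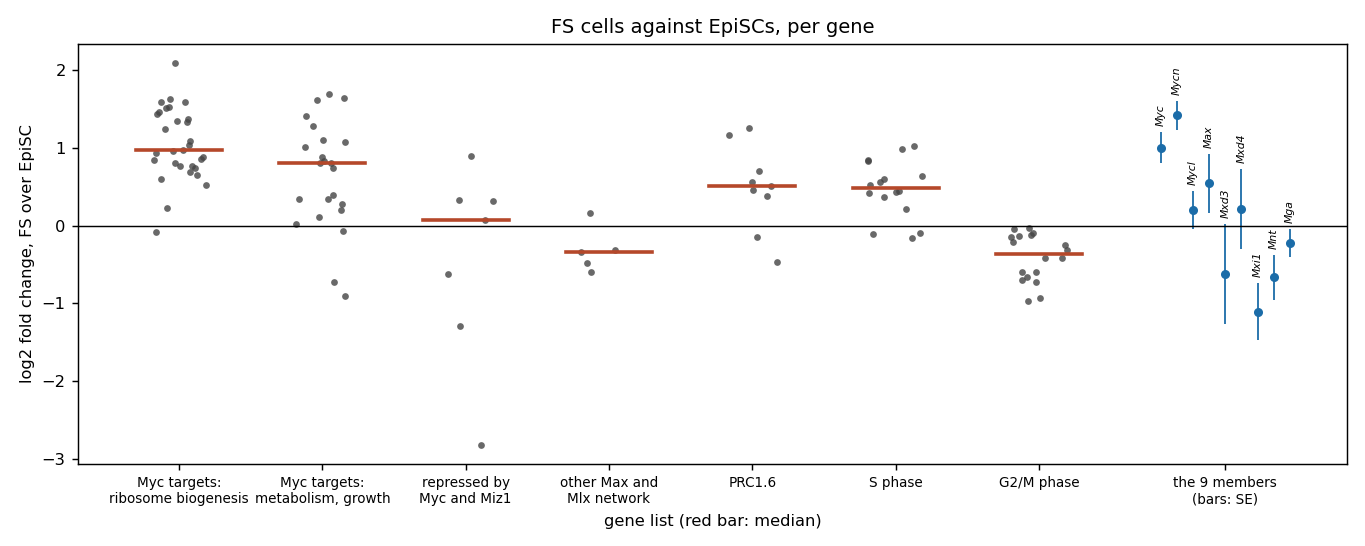
Log2 fold change of FS cells over EpiSCs for each tested gene of 7 lists (black points, red bar: median) and for the 9 members (blue, bars: SE of the edgeR fit). The ribosome biogenesis genes lie almost wholly above 0 with a median of 0.97, the G2/M genes lie below 0, and among the members Mycn and Myc lie highest and Mxi1 lowest.

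The other members of the extended network are Mlx, the partner that Mxd1, Mxd4 and Mnt can also take, the glucose-responsive factors Mlxip and Mlxipl, Mxd1 and the short paralog Bmyc. Mlx had 48.9, 47.4, 68.2 and 77.7 CPM in 5ar1, 5ar2, AFX6 and AF32 (log2 fold change -0.60 ± 0.18 SE, edgeR adjusted p = 0.24). It lies on chromosome 11, whose median in AF32, on the pooled scale used for Mnt, was 1.28 times that of the autosomes. The log2 fold changes of the next genes were -0.31 ± 0.23 for Mlxip and -0.33 ± 0.23 for Bmyc. These 3 of the 5 measured genes were lower in both FS lines, while Mlxipl (-0.49 ± 0.43) and Mxd1 (0.16 ± 0.52, 3.40 to 5.48 CPM in all lines) overlapped. Bmyc, at 20.2 to 27.6 CPM, was found at 1 CPM in at least 86.4% of the cells of every line, a wider presence over cells than that of Myc.

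Of the 9 PRC1.6 genes that work with Mga, 7 were higher and 1 lower in both FS lines (median 0.51), against 26.8% and 21.5% of all tested genes. The DNA-binding subunit E2f6 had 88.2, 54.5, 25.7 and 33.7 CPM (1.26 ± 0.32 SE, edgeR adjusted p = 0.20) and L3mbtl2 153, 180, 88.5 and 59.0 CPM (1.16 ± 0.29, adjusted p = 0.19), against Yaf2 at -0.47 ± 0.26 and Rnf2 at -0.15 ± 0.18. E2f6 and L3mbtl2 were thus higher in the FS lines, where Mga itself was slightly lower. Of the 12 germ cell genes known to be kept silent by Mga and Max, 7 were in the table and 4 passed the filter on low counts. Sycp3 had 3.88 and 8.72 CPM in the FS lines and 1.22 and 0.343 in AFX6 and AF32, Zcwpw1 27.4, 17.1, 8.05 and 11.4, and Tdrkh 121, 93.9, 78.7 and 127. Ddx4 had 0.297 and 0.133 CPM in the FS lines and 0 counts in both EpiSC lines. A gene at these levels passed the filter through the group in which it was higher, so that no count is drawn from this list.

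Of 15 cofactors of Myc and Max, 5 were higher and 3 lower in both FS lines (median -0.01), shares near the 26.8% and 21.5% of all tested genes. Hdac1, the deacetylase that Mxd and Mnt recruit, had a log2 fold change of 0.74 ± 0.17 (SE) and the chromatin helicase Ruvbl1 0.50 ± 0.16, while the corepressors Sin3b (-0.82 ± 0.18) and Ncor1 (-0.73 ± 0.65) were at the other end. Of 12 genes of Myc turnover, 6 were higher and 1 lower (median 0.30), with the same shares over all genes. Usp36, a nucleolar deubiquitinase that stabilises Myc, had 68.9, 62.2, 14.8 and 23.6 CPM (1.77 ± 0.30 SE), whereas the ubiquitin ligase Huwe1 had -0.29 ± 0.33 and Trpc4ap, an adaptor of a Myc ligase, -0.24 ± 0.15. edgeR called none of the genes of these 2 lists.

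The neighbours of the members on the chromosome gave 1 pronounced difference. Pvt1, a long noncoding RNA gene that begins 47612 bases after the end of Myc (chromosome 15, 62037986 to 62378096, plus strand), had 12.9 and 11.2 CPM in 5ar1 and 5ar2, 17.7 CPM in AFX6 and 0.0337 CPM in AF32. In AF32 it had 12 counts in all, at most 2 in a cell, and 0 of 80 cells reached 1 CPM, which allows a share of up to 3.75% by the limit of 3 counts (exact Clopper-Pearson upper bound 4.51%). The other lines had it at 1 CPM in 44 of 90, 43 of 90 and 26 of 66 cells. Myc itself had 1.12 times the AFX6 level in AF32 (counting interval 1.09 to 1.15), or 0.915 times with cells of at least 4000000 counts, and in the 3 lines with Pvt1 its rho with Myc was -0.11, -0.04 and 0.02. Among genes around it, looked at after the value was seen, the processed pseudogene Tsg101-ps beyond Pvt1 had 1.32 to 1.93 CPM in all lines. Whether these counts arise at that locus was not tested. Ddx1 beside Mycn (389, 403, 352 and 297 CPM), Trit1 beside Mycl (22.3, 28.4, 20.5 and 18.3) and Fntb beside Max (35.3, 34.9, 48.7 and 33.6) were at no such low level in any line.

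The annotated spans of 4 members overlap another gene. Where the genes lie on opposite strands their reads cannot be told apart, since the libraries do not mark strand. Max overlaps Gm47218 on its own strand, which had at most 0.869 CPM in a line, and Mxi1 overlaps AC133451.2, with at most 1.11 CPM, and Gm10197 on the opposite strand. Mxd4 overlaps Gm42846, also on the opposite strand. Mxd3 shares 105 bases with Prelid1 on the opposite strand, and Prelid1 had 472 to 605 CPM, far more than Mxd3. Spearman's rho of Prelid1 with Mxd3 between cells was -0.06, 0.03, 0.10 and -0.04, so that the levels of the pair did not follow each other. The level of Mxd3 is uncertain for this reason.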

How the data were processed

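The authors mapped the reads of each sorted cell to GRCm38.p6 with STAR 2.7.3a and deposited raw counts of uniquely mapped reads per gene (featureCounts 2.0.0). The authors also deposited a table of sctransform output, a whole-number score adjusted for depth, used here for 1 alternative of the Myc and Mycn relation. Names, coordinates and exon lengths came from GENCODE M21, with a record for 31565 of the 31617 genes. Cells with at least 3000000 counts were kept (326 of 384, the cells of the score table). Each well was sorted to hold 1 cell, and doublets were not called. CPM is counts per 1000000 counts of a cell or of the kept cells of a line. Counting intervals (exact Clopper-Pearson for shares, exact conditional for folds, 95%) cover counting error only.

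Counts were summed per line and FS lines (2) compared with EpiSC lines (2) by edgeR 4.0.16 (TMM, filterByExpr, quasi-likelihood test, R 4.3.3), with Benjamini-Hochberg adjustment over 22606 genes and a threshold of 0.05. The model was tested on simulated data, where it recovered the changes at a small spread. It did not when every gene was given the common spread estimated here. Alternatives were DESeq2 1.42.0, limma 3.58.1, other filters, depths and cells, and each line left out. Values between cells are Spearman's rho per line, without p. The members and lists were chosen with earlier results of these data known. Genes named are the members, the other network genes, the 2 genes with the largest and the 2 with the smallest log2 fold change of each list, the 5 most and 3 least like Myc or Mycn, and the neighbours. Genes named outside this rule (Eif2s3y, Tsg101-ps, Nop2, Imp4, overlapping genes and markers) were chosen after their values were seen, except the markers. Promoter windows came from RefSeq tables. A gene that the rule names is not reported here. Mycs, Dazl, Mael, Slc25a31, Stk31 and Taf7l were not analysed here.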

Additional observations from a re-analysis of the deposited data

How the results depend on the processing

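At an adjusted p under 0.05 edgeR called 0 genes and 0 members in each of its alternatives that kept every line. A count of 0 throughout says nothing of stability. What the test could find at the spread of single genes was not tested. DESeq2 called 2927 genes and 2 members (Myc and Mycn) and limma called 1 gene and no member. The direction of Myc, Mycn, Mycl, Max, Mxi1, Mnt and Mga held in all 13 alternatives of each, with log2 fold changes of 0.89 to 1.08 for Myc, 1.29 to 1.56 for Mycn, 0.20 to 0.99 for Max, -1.48 to -0.83 for Mxi1 and -0.81 to -0.55 for Mnt. With a line left out, the log2 fold change of Mxd3 ran from -1.17 to 0.26 (0.26 without AF32) and that of Mxd4 from -0.28 (without AFX6) to 0.94, so that each turned with 1 EpiSC line. The mean rho of Myc and Mycn stayed positive, between 0.04 and 0.14. With cells of at least 4000000 counts the fold of Max between AF32 and AFX6 was 2.15, past 2-fold, and those of Myc and Mnt turned to 0.915 and 0.997. By the median over cells that of Mga turned to 0.903, and that of Mnt between the FS lines to 0.932. The folds between lines stayed within their counting interval in 8 of 31 alternatives for the EpiSC lines and in 16 of 33 for the FS lines. No paired analysis was possible because the numbers in the labels name cells of separate lines, and the sums per line carry no shared number. Shares of cells at low levels are limited by depth, since 1 CPM is about 3 counts in the shallowest cells. Only 2 lines stand for each state.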
